A study of Saccharomyces cerevisiae with 20 samples.

Results

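The aminoacyl-tRNA synthetases of Saccharomyces cerevisiae were followed here through 35 nuclear genes, chosen by their systematic names and not by their expression: 21 genes for the enzymes of the cytosol, from ALA1 to VAS1, and 14 for those of the mitochondrion, from MSK1 to AIM10. They are 35 of the 7126 genes in the count tables, and all 35 passed the filter on low counts, with at least 29 reads in each of the 18 libraries used. RNA was sequenced from wild type (WT) of the BY4741 background and from 4 double mutants, which combine elp3 or urm1 with deg1 or with tcd1, with 4 libraries per label. All strains are labelled lys2 and were grown in YNB minimal medium labelled Lys(0) for 10 cell divisions to an OD600 of 1.0. Each mutant is thus labelled as lacking a gene for a wobble uridine modification together with a gene for a second modification near the anticodon, and no single mutant was in the set. The strain list of the study describes the deletions as KanMX4, SpHIS5 or loxP alleles and gives 1 strain per genotype, so that strain and genotype cannot be told apart. The labels do not say whether libraries of 1 group came from separate cultures, and p-values then measure the spread between these libraries, which may be technical.

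An aminoacyl-tRNA synthetase joins an amino acid to its tRNAs, and many of these enzymes read the anticodon loop to recognise them. Elp3 is the catalytic subunit of Elongator, which starts the side chain at position 5 of the wobble uridine, and Urm1 is the sulfur carrier that thiolates the same base in the tRNAs for Lys, Gln and Glu. Deg1 makes pseudouridine on the 3′ side of the anticodon arm, and Tcd1 closes the ring of the threonylated adenosine beside the anticodon in tRNAs such as those for Lys. In yeast the cytosolic and mitochondrial enzymes are mostly encoded by separate nuclear genes, and ALA1, CRS1, GRS1, HTS1 and VAS1 are known to serve both compartments.

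The anticodon arms of the tRNAs charged by Krs1, Gln4 and Gus1 are shown because they carry bases that the products of the genes labelled as deleted help to modify. No tRNA modification was measured here. They were read from the RefSeq R64 genome as DNA on the tRNA strand, 17 bases long, with the anticodon in capitals, from the first listed gene of each kind, and they include the stem on both sides of the loop.
Lys UUU, 7 genes, chrIV:359577-359672, plus strand: ttcggctTTTaaccgaa
Gln UUG, 8 genes, chrII:350827-350898, plus strand: ttcggttTTGatccgga
Glu UUC, 14 genes, chrII:645167-645238, plus strand: tcacgctTTCaccgtgg
Of these loops, the one of Gln alone holds a T after the anticodon, the base that Deg1 can isomerise. A further Gln gene on chromosome V had a variant of the last stem bases.

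Total counts ran from 3273876 to 3926511 per library, of which the 35 genes took 1.06 to 1.75%. TCD1 stood at 108 to 114 CPM in WT (CPM, reads per gene scaled to a common library size), at 0 to 0.69 CPM in libraries 1 to 3 labelled urm1 tcd1, but at 41.7 to 46.9 CPM in libraries 1 to 3 labelled elp3 tcd1, so that this label is used below as a label only. ELP3, URM1 and DEG1 were at most at 1.77 CPM wherever the label deletes them in the 18 libraries. The last replicate (4) of each tcd1 label had the deletions of the other one, since that of elp3 tcd1 had 345 ELP3 reads and 0 URM1 reads and that of urm1 tcd1 had 5 ELP3 reads and 174 URM1 reads, and both were left out. Of the auxotrophy markers of BY4741, LEU2, MET17 and URA3 had 0 reads in every library, and HIS3 had 648 to 1820 reads. The strain list of the study does not say how much of HIS3 is deleted. LYS2 had 14 to 110 reads. All 312 tested genes of chromosome XI had a median log2 difference from WT of 0.99 in the libraries labelled urm1 tcd1, against 0.01 to 0.10 in the other mutants, and MST1 is the one synthetase gene on that chromosome. The genes for the a-cell receptor and pheromones also differed between groups, with STE2 at a mean of 530 CPM in WT, 151 for elp3 deg1 and 1704 for urm1 deg1; the part of this difference in the results below was not tested.

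In WT the cytosolic genes had levels of 143 to 1473 CPM per kb of transcript and the mitochondrial genes levels of 12.2 to 70.2. KRS1 (YDR037W), for lysyl-tRNA synthetase, was the highest with 1473 ± 12.9 CPM per kb (SD, n = 4), followed by DPS1 (YLL018C, aspartyl) at 668 ± 34.7, ILS1 (YBL076C, isoleucyl) at 506 ± 4.91 and DED81 (YHR019C, asparaginyl) at 481 ± 8.54, and none of these overlapped its neighbour in the order. GLN4 (YOR168W, glutaminyl) with 156 ± 4.96 overlapped both its neighbours CRS1 (YNL247W, cysteinyl) and FRS2 (YFL022C), which was the lowest of the cytosolic genes. MSK1 (YNL073W), for mitochondrial lysyl-tRNA synthetase, led the mitochondrial genes with 70.2 ± 2.29 and MSE1 (YOL033W, glutamyl) was the lowest with 12.2 ± 0.846. Every mitochondrial gene from MSD1 (YPL104W, aspartyl) down overlapped the next in the order. The 21 cytosolic genes together held a mean of 16082 ± 188 CPM in WT (n = 4), 12678 ± 96.9 in elp3 deg1 (n = 4), 9360 ± 178 in urm1 deg1 (n = 4), 10608 ± 103 under the label elp3 tcd1 (n = 3) and 15062 ± 43.3 in urm1 tcd1 (n = 3). These sums did not overlap between any of the 5 groups. The sums of the 14 mitochondrial genes were far closer to each other, from 587 ± 13.8 CPM in urm1 tcd1 to 690 ± 3.88 in urm1 deg1, with 643 ± 11.5 in WT.

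The first question was how each double mutant differed from WT. Differences were tested with edgeR's quasi-likelihood test on the counts, a gene was called at a Benjamini-Hochberg adjusted p of at most 0.01 over the 5849 genes tested, and the replicates were so alike that about 1 in 3 of all genes was called in each direction. All 4 comparisons share the WT libraries. In elp3 deg1, 17 of the 21 cytosolic genes fell and 3 rose, where 33.4% of all tested genes fell and 33.1% rose. Of the 14 mitochondrial genes, 3 fell and 4 rose, shares below those of all genes. The median log2 fold change was -0.31 for the cytosolic and 0.09 for the mitochondrial genes, against 0.00 for all genes. Only 2 of the 21 cytosolic genes had a called fall of at least 1.5-fold, YDR341C (arginyl) and DPS1, beside 774 of the 5849 tested genes.

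In urm1 deg1, 18 cytosolic genes fell and 0 rose, beside 33.1% of all genes that fell and 33.2% that rose. A fall of at least 1.5-fold was called for 13 of the 21, beside 834 of the 5849 tested genes. At an unadjusted p under 0.05 edgeR had 1 cytosolic gene higher, and DESeq2 called 0. Of the 3 others, SES1 (YDR023W, seryl), with a log2 fold change of 0.11, just missed the threshold with an adjusted p of 0.0102 in edgeR's test, and it was called under 5 of the alternative settings. The cytosolic median was -0.67, the lowest of the 4 mutants, and the mitochondrial median was 0.14 with 6 genes higher and 2 lower. DESeq2 called 2 of these 6, MST1 and NAM2, and 3 were called without replicate 3 or 4 of WT or replicate 2 or 3 of urm1 deg1. For the 14 amino acids with genes of both kinds, Phe was entered on the cytosolic side as the mean of FRS1 and FRS2. The cytosolic side had the lower log2 fold change for 13 in urm1 deg1 and for 11 in elp3 deg1, and Ser (SES1 and DIA4) was an exception in both. For Arg, YDR341C was at -1.45 and MSR1 (YHR091C) at 0.16 in urm1 deg1.

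Under the label elp3 tcd1, 20 cytosolic genes fell and 1 rose, beside 32.3% of all genes that fell and 32.1% that rose. The median was -0.56, and FRS2 was the gene that rose. A fall of at least 1.5-fold was called for 10 of the 21, beside 653 of the 5849 tested genes. The mitochondrial genes had a median of -0.07, with 5 called higher and 3 lower. The cytosolic side had the lower log2 fold change for all 14 amino acids, but for Phe only as the mean of both subunits, since FRS2 alone was above MSF1 (YPR047W) under this label (0.36 against -0.26) and in elp3 deg1 (0.58 against 0.53). With replicate 4 taken as labelled, 8 in place of 20 cytosolic falls were called, beside 845 in place of 1891 over all tested genes.

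In urm1 tcd1 the cytosolic genes were split. Here 8 fell and 6 rose, beside 32.2% of all genes that fell and 32.8% that rose, and their median was 0.00. Of the mitochondrial genes, 5 fell and 2 rose, with a median of -0.15, so that this was the one mutant in which the mitochondrial median was below the cytosolic one. By amino acid, the cytosolic side still had the lower log2 fold change for 8 of 14. The median of cytosolic minus mitochondrial was -0.12. With replicate 4 taken as labelled, 1 in place of 6 cytosolic rises was called, beside 1000 in place of 1918 over all tested genes.

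**Figure D1:**
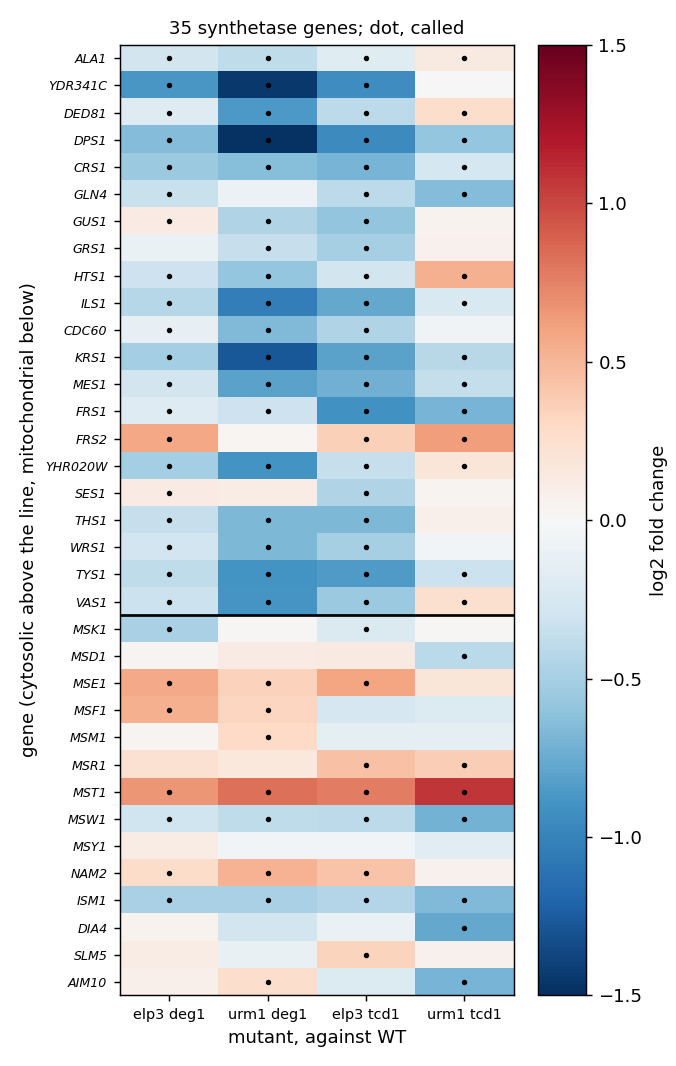
Log2 fold change against WT of the 35 synthetase genes (vertical axis, cytosolic above the line and mitochondrial below) in the 4 mutants (horizontal axis, by label); blue is lower, red is higher and a dot marks a gene called at an adjusted p of at most 0.01 by edgeR. The cytosolic block is mostly blue in the first 3 columns, down to -1.49 for DPS1 in urm1 deg1, and split in urm1 tcd1.

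**Figure D2:**
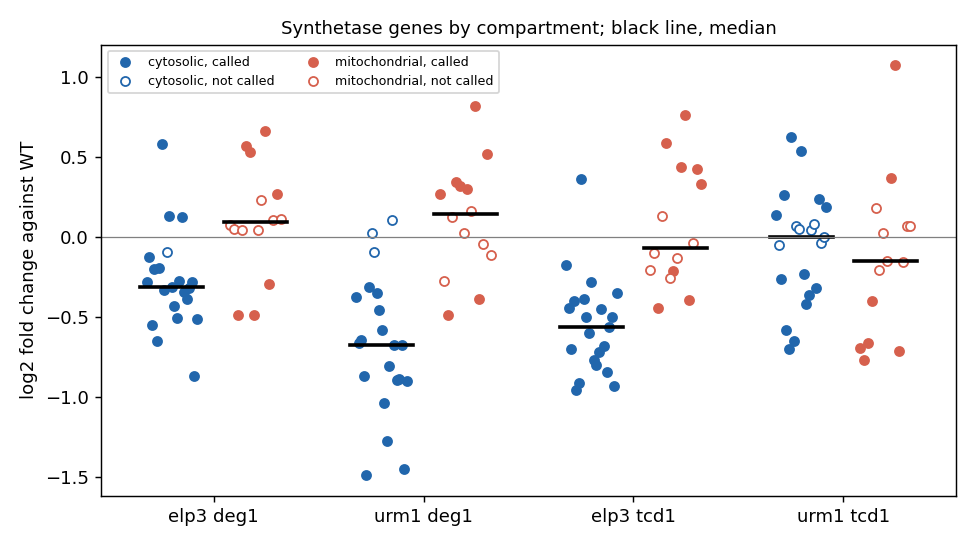
Log2 fold change against WT (vertical axis) of each cytosolic gene (blue, 21) and mitochondrial gene (red, 14) in the 4 mutants; filled points are called, open points are not called, and the black line is the median. The cytosolic medians lie at -0.31, -0.67, -0.56 and 0.00 and the mitochondrial medians at 0.09, 0.14, -0.07 and -0.15.

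The enzymes for Lys, Gln and Glu charge the tRNAs whose wobble uridine carries both modifications, and they were compared with the other cytosolic enzymes. KRS1 stood at 2590, 2640, 2630 and 2600 CPM in WT, at 1800, 1860, 1850 and 1860 in elp3 deg1, at 1100, 1150, 1080 and 1090 in urm1 deg1, at 1510, 1510 and 1520 under the label elp3 tcd1 and at 1980, 1930 and 1950 in urm1 tcd1. No library of any mutant overlapped WT, and the 5 groups did not overlap each other. KRS1 fell by 0.50 ± 0.03 (SE) on the log2 scale in elp3 deg1, by 1.27 ± 0.03 in urm1 deg1, by 0.80 ± 0.03 under elp3 tcd1 and by 0.42 ± 0.03 in urm1 tcd1, with an adjusted p of at most 1.13e-15 in edgeR's test in each. The share of KRS1 in the summed CPM of the cytosolic genes went from 16.3% in WT to 11.8% in urm1 deg1.

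GLN4, for glutaminyl-tRNA synthetase, had another order. Its levels were 386, 389, 362 and 384 CPM in WT, 301, 302, 299 and 307 in elp3 deg1, and then 341, 373, 377 and 362 in urm1 deg1, 305, 285 and 284 under elp3 tcd1 and 244, 250 and 230 in urm1 tcd1. WT and urm1 deg1 overlapped, and the libraries of the other mutants lay below all of WT. The log2 fold changes were -0.33 ± 0.04 in elp3 deg1, -0.09 ± 0.04 in urm1 deg1, -0.39 ± 0.04 under elp3 tcd1 and -0.65 ± 0.05 in urm1 tcd1, of which the one in urm1 deg1 was not called (adjusted p = 0.0244, edgeR). GLN4 was thus among the least lowered cytosolic genes in urm1 deg1 (19 of 21 in the order from the most lowered) and the one next to the most lowered in urm1 tcd1 (2 of 21).

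GUS1 (YGL245W), for glutamyl-tRNA synthetase, was measured at 532, 538, 548 and 553 CPM in WT, at 593, 590, 581 and 602 in elp3 deg1, at 400, 406, 405 and 403 in urm1 deg1, at 376, 340 and 363 under elp3 tcd1 and at 545, 572 and 561 in urm1 tcd1. It rose slightly in elp3 deg1 (log2 fold change 0.13 ± 0.03, adjusted p = 0.000922, edgeR), fell by 0.46 ± 0.03 in urm1 deg1 and by 0.60 ± 0.04 under elp3 tcd1, and in urm1 tcd1 its 0.05 ± 0.04 was not called and its libraries overlapped WT. The 3 genes therefore did not move as a group.

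Their mean log2 CPM minus that of the other 18 cytosolic genes, relative to WT, was 0.05 ± 0.03 (SD, n = 4) in elp3 deg1, 0.08 ± 0.01 (n = 4) in urm1 deg1, -0.05 ± 0.05 (n = 3) under elp3 tcd1 and -0.32 ± 0.02 (n = 3) in urm1 tcd1, with an SD of 0.02 between the 4 WT libraries. As a description with no test, the 3 genes lay close to the rest in 3 mutants and below it in urm1 tcd1, where their mean change was -0.34 and that of the other 18 genes was -0.03. With the median of the log2 CPM levels in each library in place of the mean, the values were 0.59, 0.31, 0.13 and -0.04. The median of the 3 levels was that of GUS1 in every group. The median log2 fold changes of the 3 and of the other 18 genes were -0.33 and -0.30 in elp3 deg1. They were -0.46 and -0.67 in urm1 deg1, -0.60 and -0.53 under elp3 tcd1 and -0.42 and 0.02 in urm1 tcd1. The size and, in elp3 deg1 and elp3 tcd1, also the sign thus rest on how the 3 unlike genes are averaged. In urm1 tcd1 the 3 genes were below the rest in each form.

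**Figure D3:**
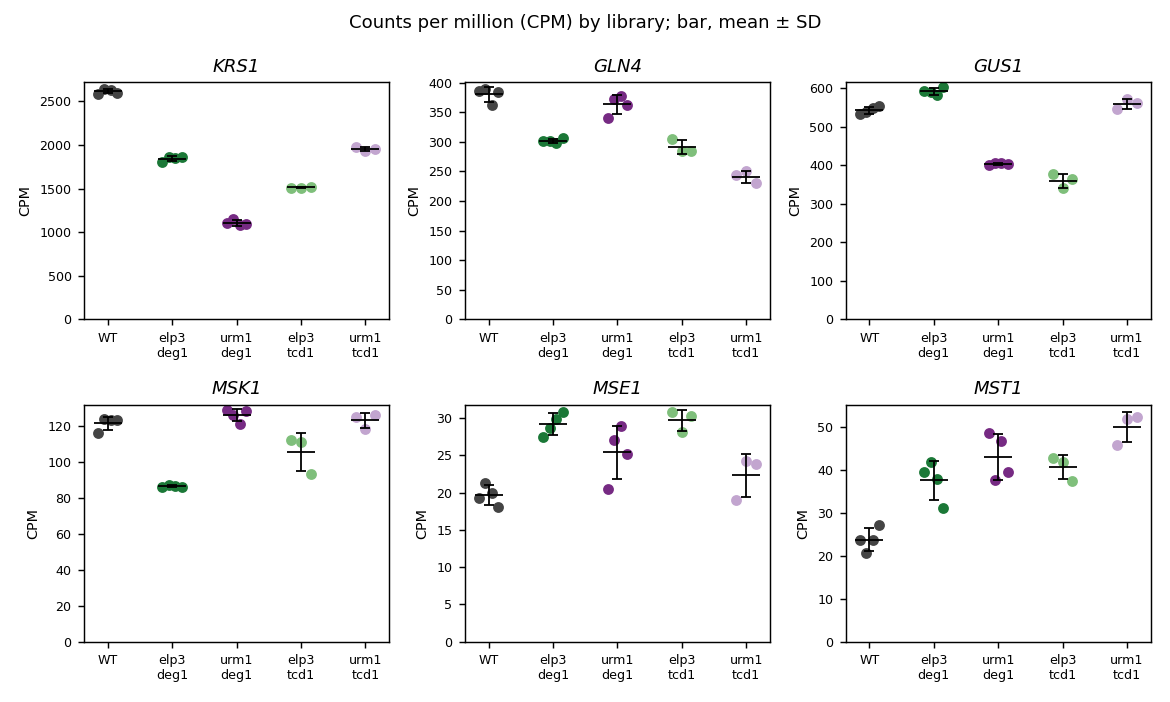
CPM (vertical axes, from 0) of the enzymes for Lys (KRS1, MSK1), Gln (GLN4), Glu (GUS1, MSE1) and mitochondrial Thr (MST1) in WT and the 4 mutants by label; points are single libraries and bars show mean ± SD (n = 4, 4, 4, 3 and 3). KRS1 is below WT in every mutant, down to 1080 CPM in urm1 deg1, and MST1 is above WT in every mutant.

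Among the other cytosolic genes, DPS1, CRS1, ILS1, MES1 (YGR264C, methionyl), FRS1 and TYS1 (YGR185C, tyrosyl) were called lower in each mutant, as was KRS1. These are 7 of the 21 cytosolic genes, where 10.7% of all tested genes were called lower in all 4 comparisons, which share the WT libraries. DPS1 had the largest fall of all members in urm1 deg1. Its levels were 1040, 1120, 1150 and 1160 CPM in WT, 742, 694, 695 and 713 in elp3 deg1, then 407, 398, 414 and 408 in urm1 deg1, 576, 565 and 593 under elp3 tcd1 and 749, 752 and 730 in urm1 tcd1. The log2 fold changes were -0.65, -1.49, -0.96 and -0.58, and no mutant library overlapped WT. ILS1 followed the same order with -0.43, -1.04, -0.77 and -0.23.

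Like CDC60 (leucyl), THS1 (threonyl) and WRS1 (tryptophanyl), YDR341C, for arginyl-tRNA synthetase, was called lower in every mutant but urm1 tcd1. It stood at 782, 811, 788 and 813 CPM in WT, at 429, 441, 442 and 433 in elp3 deg1, at 281, 308, 298 and 306 in urm1 deg1, at 409, 431 and 424 under elp3 tcd1 and at 800, 780 and 807 in urm1 tcd1. The libraries labelled urm1 tcd1 overlapped WT (log2 fold change 0.00 ± 0.03, not called), while the falls of 0.87, 1.45 and 0.93 in the other mutants were called with an adjusted p of at most 9.88e-22 in edgeR's test. Like ALA1, DED81, YHR020W and VAS1, HTS1 (YPR033C), for the histidyl enzyme of both compartments, was called lower in 3 mutants and higher in urm1 tcd1. Its 457 to 469 CPM in WT compared with 356 to 386 in elp3 deg1, 301 to 329 in urm1 deg1, 377 to 396 under elp3 tcd1 and 663 to 677 in urm1 tcd1. It fell by 0.31, 0.58 and 0.28 and rose by 0.54 (SE 0.04). All libraries of the first 3 mutants lay below WT and those of urm1 tcd1 above it. Of the 5 genes that serve both compartments, 4 fell in elp3 deg1 (33.4% of all genes), all 5 fell in urm1 deg1 (33.1%) and under elp3 tcd1 (32.3%), and in urm1 tcd1 3 rose (32.8%) and 1 fell (32.2%).

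Phenylalanyl-tRNA synthetase is a tetramer of equal numbers of the subunits encoded by FRS2 (alpha) and FRS1 (YLR060W, beta), and the mRNAs of these genes did not move together. FRS1 was at 499, 518, 497 and 496 CPM in WT, at 456, 424, 438 and 438 in elp3 deg1, at 410, 400, 417 and 423 in urm1 deg1, at 266, 266 and 274 under elp3 tcd1 and at 309, 306 and 308 in urm1 tcd1. FRS2 was at 204, 211, 222 and 231 CPM in WT, at 312, 312, 342 and 328 in elp3 deg1, at 232, 223, 221 and 223 in urm1 deg1, at 275, 281 and 282 under elp3 tcd1 and at 334, 325 and 337 in urm1 tcd1. FRS1 was below all WT libraries in every mutant, and FRS2 was above them in all but urm1 deg1, which overlapped WT. In edgeR's test FRS1 fell by 0.19, 0.31, 0.91 and 0.70 and FRS2 rose by 0.58, 0.36 and 0.62 in elp3 deg1, elp3 tcd1 and urm1 tcd1, with 0.02 ± 0.04 in urm1 deg1 (not called). The log2 ratio of FRS1 to FRS2 went from 1.21 ± 0.10 in WT (SD, n = 4) to 0.44 ± 0.08 in elp3 deg1 (n = 4), 0.87 ± 0.05 in urm1 deg1 (n = 4), -0.06 ± 0.02 under elp3 tcd1 (n = 3) and -0.11 ± 0.02 in urm1 tcd1 (n = 3). FRS2 was the only one of the 21 cytosolic genes that was called higher in more than 1 mutant.

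**Figure D4:**
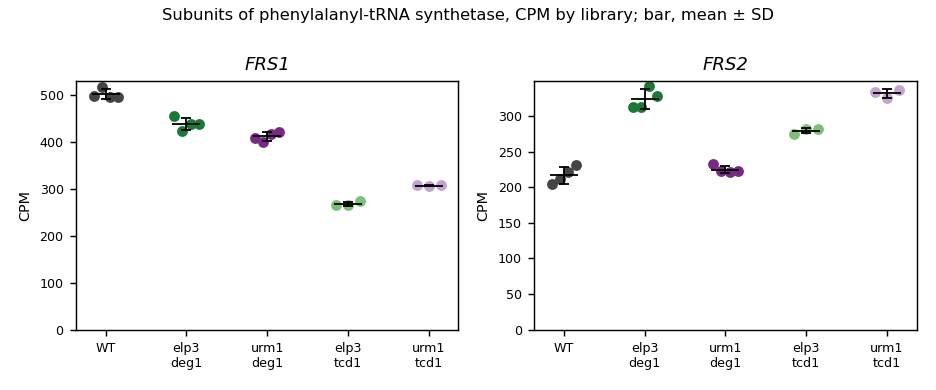
CPM (vertical axes, from 0) of FRS1 and FRS2, the subunits of phenylalanyl-tRNA synthetase, in WT and the 4 mutants by label; points are single libraries and bars show mean ± SD (n = 4, 4, 4, 3 and 3). FRS1 falls from 496 to 518 CPM in WT to 266 to 274 under elp3 tcd1, and FRS2 is highest in elp3 deg1 and urm1 tcd1.

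The mitochondrial genes had levels at which single reads weigh more, and their standard errors were larger (up to 0.17 on the log2 scale for DIA4 in urm1 tcd1). MSK1 was at 116, 124, 123 and 123 CPM in WT, at 85.9, 87, 86.7 and 85.8 in elp3 deg1, at 129, 126, 121 and 128 in urm1 deg1, at 112, 111 and 93.3 under elp3 tcd1 and at 125, 118 and 126 in urm1 tcd1. It fell by 0.49 ± 0.05 in elp3 deg1 and by 0.21 ± 0.06 under elp3 tcd1 (adjusted p = 0.00157, edgeR), and both mutants with urm1 overlapped WT with a log2 fold change of 0.02. The fall under the label elp3 tcd1 was no longer called with DESeq2, with upper quartile factors, or without replicate 3, the lowest of its libraries.

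MSE1 was at 19.3, 21.3, 20 and 18.1 CPM in WT, at 27.5, 28.7, 29.8 and 30.8 in elp3 deg1, at 20.5, 27, 28.9 and 25.1 in urm1 deg1, at 30.8, 28.1 and 30.2 under elp3 tcd1 and at 19, 24.2 and 23.8 in urm1 tcd1. It rose by 0.57 ± 0.11 in elp3 deg1 and by 0.59 ± 0.12 under elp3 tcd1, where no library overlapped WT. In urm1 deg1 the rise of 0.34 ± 0.12 was called by edgeR (adjusted p = 0.00883) though the groups overlapped, and was not called by DESeq2. In urm1 tcd1 the value of 0.18 ± 0.14 was not called. For Glu the mitochondrial gene was above the cytosolic GUS1 in log2 fold change in each mutant, at 0.57 against 0.13 in elp3 deg1, 0.34 against -0.46 in urm1 deg1, 0.59 against -0.60 under elp3 tcd1 and 0.18 against 0.05 in urm1 tcd1.

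MST1 (YKL194C), for mitochondrial threonyl-tRNA synthetase, was called higher in each mutant, as were 10.0% of all tested genes. It was at 23.7, 20.7, 23.7 and 27.2 CPM in WT, at 39.6, 41.9, 37.9 and 31.3 in elp3 deg1, at 48.6, 37.7, 46.9 and 39.6 in urm1 deg1, at 42.9, 42 and 37.5 under elp3 tcd1 and at 46, 51.9 and 52.4 in urm1 tcd1. No library overlapped WT. The log2 fold changes were 0.66 ± 0.11, 0.82 ± 0.10, 0.77 ± 0.11 and 1.07 ± 0.11. Beside the last value stands the median of 0.99 of all chromosome XI genes in urm1 tcd1, and beside the others medians of 0.02, 0.10 and 0.01.

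MSW1 (YDR268W, tryptophanyl) and ISM1 (YPL040C, isoleucyl) were called lower in each mutant by edgeR, 2 of the 14 mitochondrial genes beside 10.7% of all genes. The call of MSW1 in elp3 deg1 was lost with DESeq2 and without replicate 2, 3 or 4 of WT or replicate 3 of elp3 deg1. MSW1 went from 51.6, 59, 57.3 and 57.1 CPM in WT to 32.5, 32 and 38 in urm1 tcd1, a fall of 0.71 ± 0.10, and its falls in the other mutants were 0.30, 0.39 and 0.39. ISM1 fell by 0.49, 0.49, 0.44 and 0.66. NAM2 (YLR382C, leucyl), whose product also takes part in the splicing of mitochondrial introns, rose in 3 mutants, most in urm1 deg1 (from 44.7 to 51.7 CPM in WT to 64.7 to 74.1, log2 fold change 0.52 ± 0.07), and was at 0.07 ± 0.09 in urm1 tcd1. Its call in elp3 deg1 (0.27) was lost with DESeq2 and without replicate 2 or 4 of WT or replicate 2 of elp3 deg1. DIA4 (YHR011W, probable seryl) was called only in urm1 tcd1, where 9.82, 11 and 13.5 CPM compared with 15.8 to 22.3 in WT (-0.77 ± 0.17). MSM1 (YGR171C, methionyl) rose by 0.30 in urm1 deg1, MSR1 rose by 0.44 under elp3 tcd1 and by 0.37 in urm1 tcd1, and AIM10 (YER087W, predicted prolyl) rose by 0.27 in urm1 deg1 and fell by 0.69 in urm1 tcd1. The rises of MSM1 and AIM10 in urm1 deg1 were not called by DESeq2, nor were that of MSM1 without replicate 2 or 3 of WT and that of AIM10 without replicate 1 or 4 of WT or replicate 2 or 3 of urm1 deg1. MSY1 (YPL097W, tyrosyl) was called in no mutant.

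A second set of comparisons was made between the mutants, in 1 fit over the 18 libraries. With both deg1 mutants set against both tcd1 mutants, 14 cytosolic genes were lower and 4 higher in the deg1 mutants, beside 33.4% of all genes lower and 31.3% higher. YDR341C had the largest difference with -0.68 ± 0.03, followed by YHR020W (prolyl) with -0.61 ± 0.02, and FRS1 (0.56), SES1 (0.33), GLN4 (0.32) and GUS1 (0.12) were the higher ones. For most of the called cytosolic genes the deg1 and the tcd1 libraries overlapped. YDR341C was one of these, since elp3 deg1 and elp3 tcd1 had like levels. Of the mitochondrial genes 7 were higher and 2 lower. DESeq2 called 4 higher and 0 lower, without replicate 1 of urm1 tcd1 3 were higher and 0 lower, without replicate 1 of elp3 tcd1 0 were lower, and without replicate 4 of urm1 deg1, replicate 2 of elp3 tcd1 or replicate 2 of urm1 tcd1 4 were higher. With the replicate number as a block 0 were lower, and the lower ones were 0 to 3 as single libraries were left out. With replicate 4 as labelled, 9 in place of 14 cytosolic genes were called lower, beside 1437 in place of 1953 over all tested genes.

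Between elp3 deg1 and urm1 deg1, 16 cytosolic genes were higher in elp3 deg1, 1 was lower and 4 were not called, beside 31.4% of all genes higher and 31% lower. DPS1 with 0.81 ± 0.04, KRS1 with 0.74 ± 0.03 and DED81 with 0.64 ± 0.04 had the largest differences, and GLN4 with -0.27 ± 0.04 was the lower one. Of the mitochondrial genes 0 were higher (2 at an unadjusted p under 0.05 by edgeR, 0 called by DESeq2) and 3 lower, among them MSK1 with -0.54. Between both tcd1 labels the direction was the opposite, with 20 cytosolic genes lower in elp3 tcd1 and 1 higher, beside 29.7% of all genes lower and 30.3% higher. The largest falls were those of YDR341C (-0.92 ± 0.04), HTS1 (-0.81 ± 0.04) and VAS1 (YGR094W, valyl, -0.79 ± 0.03), and GLN4 was again the exception with 0.27 ± 0.05. With replicate 4 taken as labelled, 0 of the 35 genes were called by edgeR between these labels, and 16 had an unadjusted p under 0.05. The lowest adjusted p among the 35 in that test was 0.144, which several of them shared. Libraries that go against their label widen the spread of the whole fit, so the 0 is not read as a result about these genes. On the main libraries DESeq2 called 26 of the 35.

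The difference between those differences was tested as an interaction term in the same fit. The effect of elp3 against urm1 differed between the deg1 and the tcd1 background for all 21 cytosolic genes, 20 with a positive sign and GLN4 with a negative sign, beside 33.9% of all genes with a positive and 33.6% with a negative difference. The median over the cytosolic genes was 0.89 on the log2 scale. The largest were YDR341C with 1.47 ± 0.05 and VAS1 with 1.32 ± 0.05, KRS1 had 1.11 ± 0.04, GUS1 1.19 ± 0.05 and GLN4 -0.54 ± 0.06. Of the mitochondrial genes 4 had a called difference, each negative (MSK1, MSD1, NAM2 and AIM10), and MST1 with 0.10 ± 0.14 had none.

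**Figure D5:**
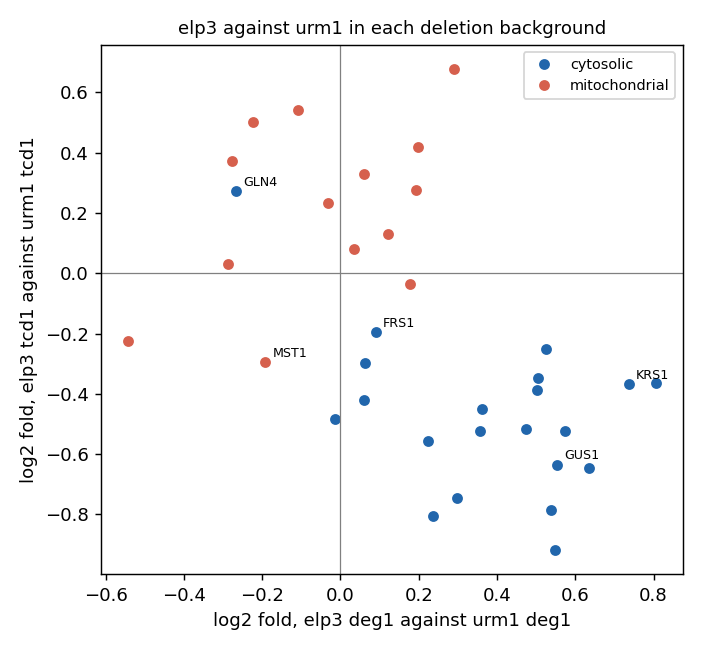
Log2 fold of elp3 against urm1 in the deg1 background (horizontal axis) and between the labels with tcd1 (vertical axis) for the 21 cytosolic (blue) and 14 mitochondrial (red) genes; each point is a gene. All cytosolic genes but GLN4 lie below 0 on the vertical axis, and most lie above 0 on the horizontal axis, such as KRS1 at 0.74 and -0.37.

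The promoters were searched for TGACTC on both strands within 500 bases before the start codon. These letters form the core of the sequence bound by Gcn4, the activator of amino acid biosynthesis genes, which several cytosolic synthetase genes are known to respond to. They were found before 10 of the 21 cytosolic genes (47.6%), before 2 of the 14 mitochondrial genes (14.3%), and before 727 of 5602 tested protein-coding genes (13.0%). The windows of the pair with the largest WT levels among the genes that hold it are shown on the gene's strand with the motif in capitals.
KRS1, motif at chrIV:525306-525311, plus strand, 134 bases before the start codon: tgaatgatgaaaTGACTCttaatgaacttc
ILS1, motif at chrII:84358-84363, minus strand, 102 bases before the start codon: tcgaaacaatgaTGACTCttaagcatgaaa
DED81 and YHR020W are divergent neighbours and share 1 site. As a description, the median log2 fold change of the 10 cytosolic genes with the motif and of the 11 without it was, in elp3 deg1, -0.39 against -0.27, in urm1 deg1, -0.88 against -0.58, under elp3 tcd1, -0.62 against -0.50, and in urm1 tcd1, 0.06 against -0.05. GCN4 itself was at 1554 ± 26.1 CPM in WT (n = 4) and changed in 3 mutants, with log2 fold changes of 0.28 in elp3 deg1, -0.29 in urm1 deg1 and 0.70 in urm1 tcd1, and it was at -0.05 under elp3 tcd1 (not called). Gcn4 is controlled mostly by translation, which these data do not measure.

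The coding sequences of the cytosolic members held a median of 6.14% GAA, 4.36% AAA and 3.20% CAA codons, those read by the modified tRNAs, against 4.41, 4.12 and 2.55% over all tested genes. In the mitochondrial members AAA was the more frequent with 5.42%, and GAA with 4.47% and CAA with 2.47% were close to all genes. Of the cytosolic genes, the 10 of class I and the 11 of class II, named for their catalytic folds, had medians of -0.74 and -0.58 in urm1 deg1 and of -0.14 and 0.08 in urm1 tcd1.

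Of 14 other genes of tRNA charging and its sensing, 4 were higher and 4 lower in elp3 deg1, shares near the 33.1% and 33.4% of all genes. The higher and lower ones were 4 and 6 for urm1 deg1, 3 and 4 under elp3 tcd1 and 3 and 5 for urm1 tcd1, beside 32.1 to 33.2% of all genes in each direction. ARC1, the cofactor that binds the Met and Glu enzymes Mes1 and Gus1 in the cytosol, was at 332 ± 17.6 CPM in WT (n = 4), was not called in elp3 deg1 (0.10 ± 0.04), and fell by 0.30, 0.68 and 0.35 in the others. GRS2, a second gene for glycyl-tRNA synthetase, had log2 fold changes of 0.79 ± 0.07 in elp3 deg1 and 0.44 ± 0.07 in urm1 deg1, both called, and was not called in the tcd1 labels. GRS1 (YBR121C), its main form, was at -0.09, -0.35, -0.50 and 0.07, of which the values of urm1 deg1 and elp3 tcd1 were called. GRS1 overlaps the small gene YBR121C-A on the same strand, so that its count may leave out reads of the overlap, and the longest run of bases that GRS1 and GRS2 share is 17. HER2, a subunit of the mitochondrial amidotransferase that turns Glu on a mitochondrial Gln tRNA into Gln, rose by 0.62, 0.79 and 0.51 in the first 3 mutants and was at 0.15 ± 0.14 in urm1 tcd1. Its partner GTF1 had its largest rise under elp3 tcd1 (0.87 ± 0.07) and was not called in elp3 deg1 (0.20). PET112, for another subunit, was called against WT only in urm1 deg1 (0.30). It was at 0.01 in elp3 deg1, 0.15 under elp3 tcd1 and -0.22 in urm1 tcd1. LOS1, the tRNA exporter, on chromosome XI, fell by 0.73, 0.68 and 0.55 and was higher by 0.75 ± 0.05 in urm1 tcd1. GCN1 and GCN20, which carry the signal of uncharged tRNA to the kinase Gcn2, fell in each mutant, GCN1 by 0.33, 0.26, 0.64 and 0.19 and GCN20 by 0.29, 0.24, 0.76 and 0.58.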

How the data were processed

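Libraries were made with a stranded mRNA kit, and tables of reads per gene were given for 20 of them. The authors deposited raw counts, per the file headers made with featureCounts 1.4.6-p2 with reverse strand counting against the Ensembl R64-1-1 annotation, release 84; the processing notes of the submitters name STAR 2.5.1b, and the text of the study names another counter. The members and lists were chosen with earlier results of these data known. Members were taken by systematic name, and any of them could be named. Values by library were given for the Lys, Gln and Glu enzymes and MST1, then for up to 3 rises and 3 falls per mutant among genes called with no overlap, and genes called alike in each mutant were listed. HTS1, FRS1 and FRS2 came from that rule.

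Counts were analysed with edgeR 4.0.16 (quasi-likelihood, TMM factors, R 4.3.3) after a filter at a minimum count of 10, which kept 5849 genes; each mutant was fitted with WT alone, the comparisons between mutants in 1 fit. CPM used TMM library sizes and log2 CPM a prior count of 2. Counting error alone limits a level of 0 at 3 reads, 0.764 to 0.916 CPM. The fits were tested on simulated counts with known changes. Replicate pairs of the libraries used differed by 1.14 to 2.51 times the sampling variance, and pairs with a left-out library by 53.4 to 66.2 times. Alternatives were DESeq2 1.42.0, other scaling factors, filters and thresholds, a replicate block, and leaving out each library. Sequences and coordinates came from the RefSeq genome R64, whose starts and ends equal those of the tables for all 35 members.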

Additional observations from a re-analysis of the deposited data

Results flagged for a closer look

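In WT, 1 library lay apart from the other 3 for 3 genes by its gap relative to the whole range: replicate 1 was low for MSK1 (116 CPM) and CRS1 (346 CPM), and replicate 2 was high for FRS1 (518 CPM). Such gaps arise by chance in about 1 in 20 groups, and the 21 named genes were looked at in 3 groups of 4 libraries each.

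The effect of elp3 against urm1 differed between the deg1 background and the tcd1 labels, by the interaction test, for GUS1 (1.19 on the log2 scale), KRS1 (1.11), FRS2 (0.77), FRS1 (0.29), MSK1 (-0.32) and GLN4 (-0.54). The tcd1 side of this difference rests in part on the libraries labelled elp3 tcd1, whose label goes against the TCD1 reads. The labels cannot be told apart from other differences between the strains.

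In the libraries left out of the comparisons, MST1 stood above WT by 1.08 in replicate 4 labelled elp3 tcd1 and by 0.56 in replicate 4 labelled urm1 tcd1. The cytosolic genes of the first differed from libraries 1 to 3 of its own label by a median of 0.50 and from those labelled urm1 tcd1 by 0.02, and those of the second by 0.42 from its own label and by 0.06 from the other, all as absolute log2 differences.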

How the results depend on the processing

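The pattern in the cytosolic genes held under DESeq2, RLE factors, no filter and an adjusted p of 0.05, except as given here. With a change of at least 1.5-fold required, the cytosolic genes called higher and lower were 0 and 2 in elp3 deg1, 0 and 10 under elp3 tcd1, 1 and 2 in urm1 tcd1, 0 and 2 in the deg1 against the tcd1 mutants, 3 and 0 in elp3 deg1 against urm1 deg1 and 0 and 6 in elp3 tcd1 against urm1 tcd1, and the mitochondrial genes 1 and 0, 2 and 0, 1 and 4, 2 and 0, 0 and 0, and 1 and 0, with 1 and 0 in urm1 deg1. Of the 5849 tested genes, 938 were then higher and 774 lower in elp3 deg1, and 760 and 834 in urm1 deg1. Under elp3 tcd1 these were 826 and 653, and in urm1 tcd1 1015 and 794. They were 438 and 567 in the deg1 against the tcd1 mutants, and 667 and 631 in elp3 deg1 against urm1 deg1. For elp3 tcd1 against urm1 tcd1 the counts over all genes at 1.5-fold are not given here. With no fold required, 30.3% of all genes were higher and 29.7% lower in that comparison. In urm1 deg1 the cytosolic genes called higher were 1 at an adjusted p of 0.05, with upper quartile factors, with TMM factors without chromosome XI, with no filter and in 1 fit over the 18 libraries. DESeq2 called 2 mitochondrial genes higher in urm1 deg1, and 4 higher and 0 lower in the deg1 against the tcd1 mutants, where the lower ones were 4 at an adjusted p of 0.05, 1 with upper quartile factors and 1 with no filter. Between both tcd1 labels the mitochondrial genes higher were 8 at an adjusted p of 0.05 and 8 with upper quartile factors, and those lower were 2, 0, 2 with RLE factors and 2 without chromosome XI. At 0.05, 1 mitochondrial gene was higher in elp3 deg1 than in urm1 deg1.

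With all libraries as labelled, the cytosolic genes lower under elp3 tcd1 were 8 and the mitochondrial ones higher 2, in urm1 tcd1 1 cytosolic gene was higher and 2 mitochondrial genes were lower, and in the deg1 against the tcd1 mutants 9 cytosolic genes were lower and 3 and 1 mitochondrial genes higher and lower. Of all tested genes, 845 were then called lower under elp3 tcd1, 1000 higher in urm1 tcd1 and 1437 lower in the deg1 against the tcd1 mutants. Between elp3 tcd1 and urm1 tcd1 all counts of synthetase genes were then 0, with a lowest adjusted p of 0.144 in edgeR's test. In elp3 deg1, 1 mitochondrial gene was then lower than in urm1 deg1. The inclusion of libraries that go against their label widens the spread of the fit by its construction, and it also moves the estimates. VAS1 under elp3 tcd1, for example, went from -0.56 ± 0.03 (SE) to -0.32 ± 0.18 against WT. The difference of the Lys, Gln and Glu enzymes from the rest was -0.11 and -0.26 for the 2 tcd1 labels with these libraries. It was 0.59, 0.31, 0.13 (reversed) and -0.0442 with medians of the log2 CPM levels, where the median of the 3 genes is GUS1.

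Same-numbered libraries did not deviate together (correlations of -0.07 to 0.10), so the numbers do not pair the samples. With the replicate number as a block, 0 in place of 2 mitochondrial genes were lower in the deg1 against the tcd1 mutants, and every other count of calls stayed within 1.5 times.

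Leaving out 1 library gave 2 to 3, 17 to 18, 3 to 4 and 2 to 3 genes (cytosolic higher and lower, mitochondrial higher and lower) in elp3 deg1, 0 to 1, 18, 3 to 6 and 2 in urm1 deg1, 1, 20, 4 to 5 and 2 to 3 under elp3 tcd1, and 6, 8, 2 and 5 in urm1 tcd1. It gave 4, 13 to 14, 3 to 7 and 0 to 3 in the deg1 against the tcd1 mutants, 16 to 17, 1, 0 and 2 to 4 in elp3 deg1 against urm1 deg1 and 1, 20, 4 to 6 and 0 to 1 in elp3 tcd1 against urm1 tcd1. The 3 in urm1 deg1 came without replicate 3 or 4 of WT or 2 or 3 of urm1 deg1, the lone cytosolic rise without its replicate 1 or 4. Of the deg1 against the tcd1 mutants, the mitochondrial rises were 3 without replicate 1 of urm1 tcd1, and the falls 0 without it or replicate 1 of elp3 tcd1. MSE1 in urm1 deg1 was not called without replicate 1, 3 or 4 of WT or 2, 3 or 4 of urm1 deg1. The difference of the Lys, Gln and Glu enzymes ranged from 0.04 to 0.06, 0.08 to 0.09, -0.08 to -0.04 and -0.33 to -0.31.

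Signs near 0 that turned were never of called genes. In urm1 tcd1 against WT, GUS1 was at -0.0147 with upper quartile factors and -0.0934 with all libraries, MSK1 at -0.0418 and -0.0634, and YDR341C at -0.0640 and -0.175, with -0.00475 in 1 fit. In the deg1 against the tcd1 mutants MES1 was at -0.00151 without chromosome XI and -0.00826 with all libraries, and MSM1 was at -0.11 between elp3 tcd1 and urm1 tcd1 with all libraries. Leaving out 1 library, the log2 fold changes against WT ranged from -0.0170 to 0.113 for MSM1 and -0.0425 to 0.121 for DIA4 in elp3 deg1, -0.00266 to 0.0583 for FRS2 in urm1 deg1, and -0.00500 to 0.0528 for MSK1 and -0.0137 to 0.0152 for YDR341C in urm1 tcd1. Those of elp3 deg1 against urm1 deg1 ranged from -0.00563 to 0.0969 for MSR1 and -0.0964 to 0.00113 for ISM1, and MSM1 from -0.00531 to 0.0904 between the tcd1 labels. The cause of these differences was not tested.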

Other observations

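GCN4 mRNA and the 10 cytosolic genes with TGACTC can be set side by side over the mutants, whose fold changes share the WT libraries. GCN4 was at 2514 ± 45.5 CPM (n = 3) in urm1 tcd1, where the median log2 fold change of the 10 genes was 0.06, and at 1888 ± 40.8 CPM (n = 4) in elp3 deg1, where it was -0.39. Under elp3 tcd1 the values were 1504 ± 43.2 CPM (n = 3) and -0.62, and in urm1 deg1 1294 ± 58.6 CPM (n = 4) and -0.88. In WT, GCN4 stood at 1554 ± 26.1 CPM (n = 4), below elp3 deg1, in which 9 of the 10 genes were called lower and 1, SES1, higher, beside 33.4% and 33.1% of all genes. The rise of SES1 was lost without replicate 1 or 2 of WT or replicate 1, 3 or 4 of elp3 deg1. Of the 11 cytosolic genes without the motif, 8 were called lower and 2 higher in elp3 deg1, and their medians had the same order over the mutants, at -0.05 in urm1 tcd1, -0.27 in elp3 deg1, -0.50 under elp3 tcd1 and -0.58 in urm1 deg1. A relation over 4 mutants was not tested.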
